A study of Mus musculus with 4 samples.

Results

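The type 2 and eosinophil genes of the inflammation array were *Il4*, *Il5*, *Il13*, *Il5ra*, *Ccl11*, *Ccl24*, *Ccr3*, *Ccl17*, *Ccl22* and *Ccr4*. They were chosen by gene symbol and make up 10 of the 84 target genes. Their RNA was measured in ischemic hindlimb muscle of mice given E-selectin gene therapy (E-sel/AAV2/2) or control vector (LacZ/AAV2/2). The question was whether expression of the endothelial adhesion molecule E-selectin altered the type 2 branch of inflammation in ischemic muscle. Both groups were FVB mice (FVB/NJ in the study's methods), 10 to 12 weeks old, that received an adeno-associated virus of serotype 2/2 into the thigh and calf muscles in 3 doses up to the day of surgery. The virus carried either murine E-selectin or LacZ, a bacterial reporter. In both groups the femoral vessels were then interrupted and the nitric oxide synthase inhibitor L-NAME was injected at 40 mg/kg. Adductor and gastrocnemius muscles were taken at 21 days. Each group was 1 pool of RNA from 3 mice, run on 2 arrays, and the groups are called the treated pool (E-sel/AAV2/2) and the control pool (LacZ/AAV2/2) below. All SDs, SEs and p-values therefore describe repeat arrays and not animals. The promoter driving the transgenes and the sex of the pooled mice were not given in the sources used here, and no untreated muscle is analysed here. None of the panel genes defines skeletal muscle, so the tissue could not be checked against such markers.

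Type 2 immunity is the arm of inflammation directed by the cytokines IL-4, IL-5 and IL-13, which are made by Th2 cells, innate lymphoid cells, mast cells and eosinophils. IL-5 sustains eosinophils through its receptor, while IL-4 and IL-13 drive alternative activation of macrophages and induce chemokines. The eotaxins CCL11 and CCL24 attract eosinophils through CCR3, and CCL17 and CCL22 attract Th2 and regulatory T cells through CCR4. In injured skeletal muscle, IL-4 from eosinophils is known to act on the fibro-adipogenic progenitors that help regeneration.

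All 10 genes gave a threshold cycle (Ct) on all 4 arrays. Ct is the PCR cycle at which fluorescence crosses a set level, so that abundant transcripts have a low Ct and each cycle stands for a factor of 2. A Ct above 35 comes from very few template molecules. *Ccl11*, *Ccr3* and *Ccl17* stayed under 35 on all 4 arrays. *Il13* and *Il5ra* were above 35 on all 4. The remaining 5 genes crossed that line: *Il5* on both treated arrays, *Il4*, *Ccl22* and *Ccr4* on control replicate 1, and *Ccl24* on replicate 1 of each group. In all, 4 and 3 of the 10 genes were above 35 on treated replicates 1 and 2, and 6 and 2 on control replicates 1 and 2. The well that controls for genomic DNA crossed the level at 37.33 and 36.13 in the treated pool, and at 36.86 and 39.33 in the control pool. *Il5ra* came later than that well on both treated arrays and on control replicate 1, and *Il13* came later on control replicate 1. A contribution of residual DNA to these late wells was not tested.

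**Figure D1:**
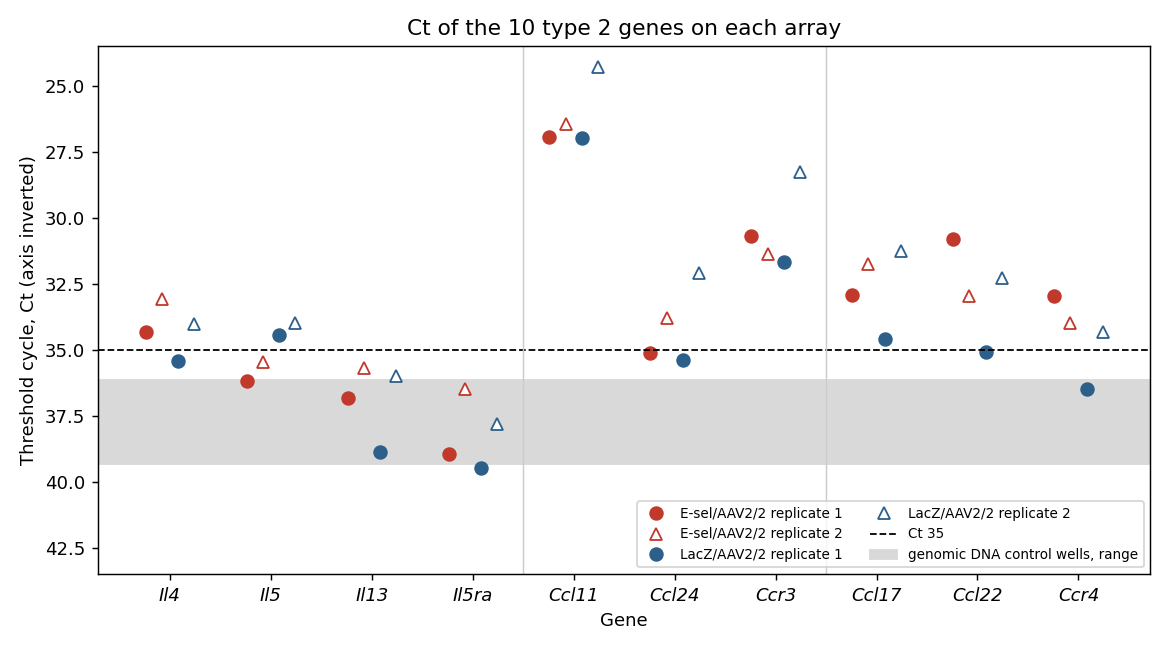
Threshold cycle (Ct, vertical axis, inverted so that more transcript lies higher) of each gene on the 4 arrays, with E-sel/AAV2/2 in red, LacZ/AAV2/2 in blue, replicate 1 as filled circles and replicate 2 as open triangles. The dashed line marks Ct 35 and the gray band spans the genomic DNA control wells, 36.13 to 39.33. *Ccl11* lies far above the other genes, and *Il13* and *Il5ra* lie below the line on every array.

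The arrays differed from each other before any comparison of treatments. The 5 reference genes averaged between 23.84 and 24.34 in the treated pool and between 24.02 and 25.25 in the control pool. After normalization, control replicate 2 was the highest of the 4 arrays for 4 of the 10 genes and the lowest for 0, whereas control replicate 1 was the highest for 1 and the lowest for 5. The reverse transcription control wells averaged from 23.11 to 23.55 on 3 arrays and 24.72 on control replicate 2. The positive PCR control wells lay between 21.00 and 21.19 on all 4. The part of these differences in the results below was not tested, and values without single arrays are given where they matter.

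Expression was normalized as -ΔCt, the average of 5 reference genes (*Gapdh*, *Actb*, *Gusb*, *Hsp90ab1* and *B2m*) minus the Ct of the gene, on a log2 scale on which a higher value is more transcript. Log2 fold changes are treated minus control. In limma with Benjamini-Hochberg adjustment over all 77 genes tested, 0 of the 10 genes differed between the pools, against 5.19% of all genes. At an unadjusted p-value under 0.05 there was 1 gene, *Il5*, against 13% of all genes. By size, 2 genes were at least 2-fold higher in the treated pool (*Ccl22* and *Ccr4*; 26% of all genes) and 4 were at least 2-fold lower (*Il5*, *Ccl11*, *Ccr3* and *Ccl24*; 28.6% of all genes). Both arrays of one pool lay outside both arrays of the other for 3 genes (48.1% of all genes), higher for *Ccr4* (22.1%) and lower for *Il5* and *Ccl11* (26%). Only the share of 2-fold lower genes, 4 of 10, was above that of the panel. The 10 genes had a median log2 fold change of 0.20, all genes tested one of -0.19, and the SD of the 10-gene median between repeat arrays was 0.46.

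The cytokines *Il4*, *Il13* and *Il5* lie close together on mouse chromosome 11. In the RefSeq annotation *Il4* and *Il13* are direct neighbors among protein-coding genes, and only *Rad50* lies between *Il13* and *Il5*. Their proximal promoters are shown for reference, and a link between the motifs and the values here was not tested. Each line gives the 250 bases before the annotated start (RefSeq, GRCm38.p6), with 2 kinds of motif in capitals: TTCNNNNGAA, the spaced palindrome recognized by STAT6 downstream of the IL-4 receptor, and AGATAA or TGATAA, forms of the site for GATA factors such as GATA3 of Th2 cells, on either strand.
Il4 (chr11:53618666-53618915, minus strand): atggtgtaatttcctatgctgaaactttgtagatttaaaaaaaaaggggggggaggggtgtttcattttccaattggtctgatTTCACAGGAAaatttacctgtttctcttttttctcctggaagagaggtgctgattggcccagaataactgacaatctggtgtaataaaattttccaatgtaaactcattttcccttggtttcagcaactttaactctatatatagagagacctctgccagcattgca
Il13 (chr11:53634703-53634952, minus strand): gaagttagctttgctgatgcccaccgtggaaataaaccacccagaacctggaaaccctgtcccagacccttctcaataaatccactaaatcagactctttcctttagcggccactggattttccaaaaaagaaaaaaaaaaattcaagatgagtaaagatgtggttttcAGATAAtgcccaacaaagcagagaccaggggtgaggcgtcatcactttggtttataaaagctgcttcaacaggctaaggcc
Il5 (chr11:53720544-53720793, plus strand): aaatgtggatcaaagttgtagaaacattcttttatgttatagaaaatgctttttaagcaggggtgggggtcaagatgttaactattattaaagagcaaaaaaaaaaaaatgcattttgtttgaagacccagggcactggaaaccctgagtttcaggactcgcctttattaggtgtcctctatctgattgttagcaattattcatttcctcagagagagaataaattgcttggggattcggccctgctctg
*Il4* held a STAT6-type match, *Il13* an AGATAA match and *Il5* none of the searched forms. *Il4* has an additional annotated start, whose window held none of the searched forms. The STAT6-type letters occur in 5.85% of all 32851 promoter windows of this length and either GATA form in 16.6%. These matches describe letters only. GATA forms ending in G were not searched. The *Il5* window holds CTATCT, which is AGATAG on the opposite strand, and the additional *Il4* window holds TGATAG. Promoter windows were found for 8 of the 10 genes, those other than *Ccl11* and *Ccl24*. Among windows not printed, those of *Ccr3* and *Il5ra* each held an AGATAA match, and that of *Ccr4* held none of the searched forms.

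*Il5*, the growth and survival factor of eosinophils, showed the largest difference of the 10. Its Ct was 36.19 and 35.48 in the treated pool against 34.43 and 33.97 in the control pool. Both treated arrays were therefore later than both control arrays even before normalization. Its -ΔCt was -11.75 ± 0.15 (SD, n = 2 arrays) in the treated pool and -9.56 ± 0.54 (SD, n = 2) in the control pool. The log2 fold change was -2.18 (SE 0.95, 95% interval -4.24 to -0.13, limma adjusted p = 0.299). It was below zero under every setting in which it was fitted, from -3.62 with *B2m* alone as reference to -1.07 with *Gapdh* alone, and its adjusted p-value in limma ran from 0.0771 to 0.908. The lower level in the treated pool thus did not pass the threshold of the panel-wide test, and it was measured in wells at the edge of detection.

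*Il4*, the cytokine that directs Th2 differentiation, did not share that pattern. Its Ct was 34.33 and 33.08 in the treated pool and 35.41 and 34.01 in the control pool. After normalization the 4 arrays ran from -10.16 to -9.24 and the groups overlapped. The log2 fold change was 0.46 (SE 0.95, 95% interval -1.60 to 2.51, limma adjusted p = 0.807). *Il13*, which shares a receptor chain with IL-4 and acts on epithelium, fibroblasts and macrophages, had a Ct of 36.82 and 35.71 in the treated pool and 38.89 and 35.99 in the control pool. The log2 fold change of *Il13* was 0.63 (SE 1.00, 95% interval -1.53 to 2.79, limma adjusted p = 0.745), and the control arrays differed by 1.68 after normalization. *Il5ra*, the specific chain of the IL-5 receptor and a marker of eosinophils, had a Ct of 38.95 and 36.50 in the treated pool and 39.47 and 37.81 in the control pool. The estimate for *Il5ra* was 0.37 (SE 1.02, 95% interval -1.82 to 2.56, limma adjusted p = 0.847). The intervals of *Il4*, *Il13* and *Il5ra* reach beyond 4-fold in at least 1 direction, so sizable differences were not detectable in these genes at this replication.

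The 2 cytokines could also be set against each other on the same array, where no reference gene enters. The level of *Il4* minus that of *Il5* was 1.86 and 2.40 cycles in the treated pool and -0.98 and -0.04 in the control pool. The *Il4* well was thus ahead of the *Il5* well on both treated arrays. It was behind on control replicate 1 and nearly level with it on control replicate 2. The difference between the pools was 2.64 on the log2 scale. It ran from 2.17 to 3.11 when single arrays were left out and was 1.60 with late values set to Ct 35. This pair was picked after the values were seen and carries no test. Of all 2926 pairs of genes tested, 54.2% had arrays that did not overlap between the pools.

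*Ccl11* (eotaxin-1), the CCR3 ligand made by fibroblasts and endothelium, was by far the earliest of the 10 wells. Its Ct was 26.95 and 26.46 in the treated pool and 27.00 and 24.29 in the control pool. The treated arrays agreed within 0.01 after normalization, at -2.61 and -2.62. The control arrays, at -1.75 and -0.27, were both higher but far from each other. The log2 fold change was -1.61 (SE 0.98, 95% interval -3.73 to 0.51, limma adjusted p = 0.507), and it was -0.87 without control replicate 2. *Ccl24* (eotaxin-2), a CCR3 ligand of alternatively activated macrophages, had a Ct of 35.12 and 33.79 in the treated pool and 35.38 and 32.11 in the control pool. The groups overlapped, and its log2 fold change of -1.26 (SE 1.03, 95% interval -3.48 to 0.97, limma adjusted p = 0.507) became -0.23 without control replicate 2.

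*Ccr3*, the eotaxin receptor and a marker of eosinophils, had a Ct of 30.69 and 31.39 in the treated pool and 31.69 and 28.27 in the control pool. Its -ΔCt of -6.35 and -7.55 in the treated pool stood against -6.44 and -4.25 in the control pool, so that 1 array of the control pool lay among those of the treated pool. The log2 fold change was -1.61 (SE 1.06, 95% interval -3.89 to 0.67, limma adjusted p = 0.507) and became -0.51 without control replicate 2. The estimates of *Ccl11*, *Ccl24* and *Ccr3* were below zero under every setting in which they were fitted, but their size varied with the reference and with single arrays. With *Gapdh* alone they shrank to -0.49 for *Ccl11*, -0.14 for *Ccl24* and -0.49 for *Ccr3*, and with *B2m* alone they were -3.05, -2.70 and -3.05. Without control replicate 1 they were -2.35, -2.28 and -2.71. *Ccr3* and *Il5ra* are the 2 eosinophil markers of the panel, and their estimates were -1.61 and 0.37. Neither was called in limma, so a difference in eosinophil transcripts is not established. In pooled tissue RNA, the number of eosinophils and the transcript per eosinophil cannot be told apart.

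The CCR4 ligands *Ccl17* and *Ccl22* lie on mouse chromosome 8 with only *Cx3cl1* between them among protein-coding genes. Their promoter windows, marked as above, are given for comparison, since both chemokines are known as IL-4-induced genes of macrophages and dendritic cells.
Ccl17 (chr8:94810203-94810452, plus strand): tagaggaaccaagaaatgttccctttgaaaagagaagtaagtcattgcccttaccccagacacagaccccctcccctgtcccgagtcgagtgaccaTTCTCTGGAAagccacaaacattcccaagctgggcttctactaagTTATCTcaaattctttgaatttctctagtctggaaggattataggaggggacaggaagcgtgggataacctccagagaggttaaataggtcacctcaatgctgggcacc
Ccl22 (chr8:94745434-94745683, plus strand): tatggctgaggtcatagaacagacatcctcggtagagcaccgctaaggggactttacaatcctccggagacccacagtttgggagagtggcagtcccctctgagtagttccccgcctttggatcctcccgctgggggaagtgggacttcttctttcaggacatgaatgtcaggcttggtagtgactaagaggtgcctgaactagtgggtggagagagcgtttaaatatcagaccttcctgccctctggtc
*Ccl17* held a STAT6-type match and a GATA match on the opposite strand (TTATCT), and *Ccl22* held neither. *Ccl17* (TARC) had a Ct of 32.94 and 31.74 in the treated pool and 34.58 and 31.26 in the control pool. The treated arrays fell between the control arrays after normalization. The estimate for *Ccl17* was 0.03 on the log2 scale (SE 1.03, 95% interval -2.19 to 2.26, limma adjusted p = 0.976). *Ccl22* (MDC) had a Ct of 30.79 and 32.98 in the treated pool and 35.10 and 32.30 in the control pool. It was high on 1 treated array at -6.45, while the other, at -9.14, lay between the control arrays at -9.85 and -8.28. Its log2 fold change of 1.27 (SE 1.12, 95% interval -1.14 to 3.67, limma adjusted p = 0.532) turned to -0.08 without treated replicate 1.

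*Ccr4*, the receptor of both chemokines on Th2, regulatory and skin-homing T cells, had a Ct of 32.98 and 33.97 in the treated pool and 36.49 and 34.32 in the control pool. Both treated arrays, at -8.64 and -10.13, lay above both control arrays, at -11.24 and -10.30, although the nearest were close. The log2 fold change of *Ccr4* was 1.38 (SE 1.00, 95% interval -0.77 to 3.54, limma adjusted p = 0.507). It was 0.64 without treated replicate 1 and -0.06 with *B2m* as the only reference. None of the CCR4 axis genes was called in limma, and the 95% interval of each included zero.

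**Figure D2:**
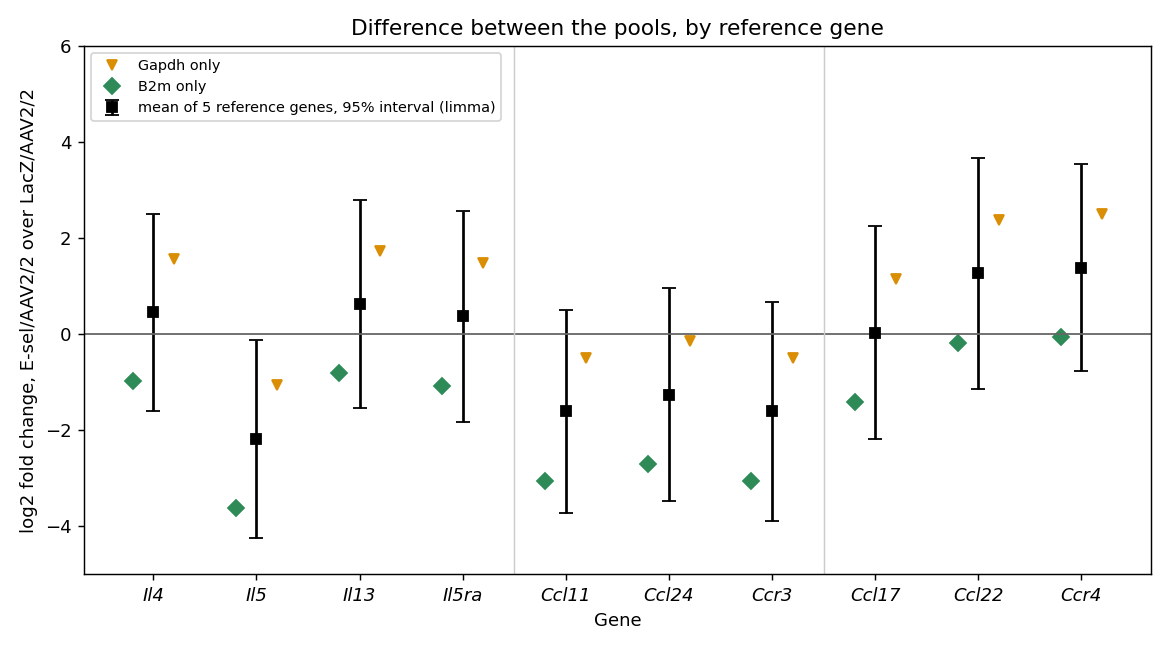
Log2 fold change of E-sel/AAV2/2 over LacZ/AAV2/2 for each gene. Black squares with bars are estimates and 95% intervals from limma with the mean of 5 reference genes, orange triangles use *Gapdh* alone and green diamonds use *B2m* alone. The interval of *Il5* alone leaves out zero, and with *B2m* alone all 10 estimates fall below zero.

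The choice of reference moved all genes together. The Ct of *B2m* was 22.55 and 21.09 in the treated pool and 24.68 and 22.94 in the control pool. That of *Gapdh* was 20.07 and 20.36 in the treated pool and 19.95 and 19.35 in the control pool. With *Gapdh* alone the median of all genes tested was 0.92 and that of the 10 type 2 genes was 1.31, whereas with *B2m* alone the medians were -1.64 and -1.24. A change of reference shifts every gene by the same amount, so the median of the 10 genes stayed 0.39 above the panel median by construction. That offset turned to -0.42 without treated replicate 2 and -0.21 without control replicate 1, and was 0.03 without control replicate 2. It was -1.07 over the genes under Ct 35 on all arrays, 3 of them type 2 genes. With late values set to Ct 35 both medians were -0.55, the shift of the reference genes. The offset of 0 there follows from the setting and does not describe the 10 genes. Directions of *Il4*, *Il13*, *Il5ra*, *Ccl17*, *Ccl22* and *Ccr4* turned with *B2m* alone, and those of *Il5*, *Ccl11*, *Ccl24* and *Ccr3* did not turn under any setting.

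Differences between genes within an array do not depend on the reference. The 3 genes of the CCR3 axis (*Ccl11*, *Ccl24*, *Ccr3*) were set against the 3 genes of the CCR4 axis (*Ccl17*, *Ccl22*, *Ccr4*) as the difference of their mean levels on each array. This was 1.32 and 2.35 cycles in the treated pool and 4.03 and 4.40 in the control pool. The mean was 1.83 ± 0.73 (SD, n = 2) in the treated pool and 4.22 ± 0.26 (SD, n = 2) in the control pool. The 3 CCR3 axis transcripts were thus less abundant relative to the 3 CCR4 axis transcripts in the treated pool, by 2.38 on the log2 scale. The panel's additional CCR3 ligands *Ccl5* and *Ccl7* were not part of this contrast, and their log2 fold changes were 2.04 and -0.39. The treated minus control value ran from -2.90 to -1.87 when single arrays were left out. It was -1.80 with the median of the 3 genes in place of the mean and -2.16 with late values set to Ct 35.

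The axis contrast is the average of its 9 gene pairs, so these pairs describe it gene by gene and add no separate support. All 9 pairs of a CCR3 axis gene with a CCR4 axis gene had non-overlapping arrays, and 0 of the 6 pairs within an axis did. For the receptors, *Ccr3* minus *Ccr4* was 2.29 and 2.58 cycles in the treated pool and 4.80 and 6.05 in the control pool. For a ligand of each axis, *Ccl11* minus *Ccl22* was 3.84 and 6.52 in the treated pool and 8.10 and 8.01 in the control pool. The smallest difference between the pools among the 9 pairs was that of *Ccl24* minus *Ccl17*, at -2.18 and -2.05 in the treated pool and -0.80 and -0.85 in the control pool. The treated minus control values of the 9 pairs ran from -2.99 to -1.29, and the 3 pairs with *Ccl17*, from -1.64 to -1.29, were the smallest. *Ccl11* minus *Ccr3*, a pair within the CCR3 axis, averaged 4.33 in each pool. Over all 45 pairs of the 10 genes, 24 (53.3%) had non-overlapping arrays, against 54.2% of the 2926 pairs of genes tested. The 9 pairs share 6 genes and 1 pool per group, the contrast was formed after the values were seen, and the smallest two-sided p-value that exact permutation of 2 arrays against 2 allows is 0.333. No test is therefore given.

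**Figure D3:**
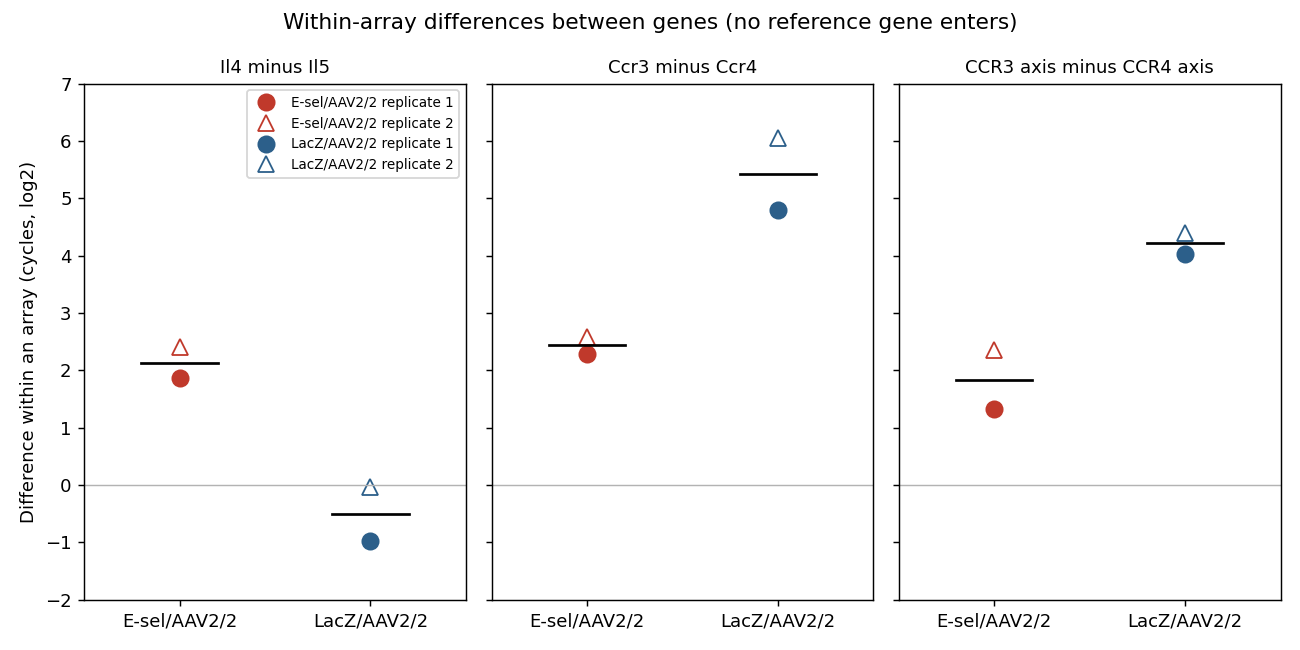
Differences between genes on the same array, in cycles (log2), for *Il4* minus *Il5*, *Ccr3* minus *Ccr4*, and the CCR3 axis mean minus the CCR4 axis mean. Circles are replicate 1, triangles replicate 2 and bars the mean of 2 arrays. In each panel the 2 pools do not overlap, with -0.98 and -0.04 against 1.86 and 2.40 for the cytokines. These contrasts were picked after the values were seen, and 54.2% of all 2926 pairs of genes tested do not overlap either.

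Markers of other cell types are given beside these axes. All 5 genes listed for T lymphocytes (*Cd40lg*, *Il2rb*, *Cxcr3*, *Fasl*, *Il2rg*) were above zero, with a median log2 fold change of 1.43 and 0 called, although 3 of them turned below zero with *B2m* alone, 2 without control replicate 1 and 2 with late values set to Ct 35. *Cd40lg* and *Fasl* were above Ct 35 on all 4 arrays. Summed over all 5 genes, the level was -3.21 and -4.58 (log2) in the treated pool and -5.38 and -5.09 in the control pool. Its largest part was *Il2rg*, at -3.37 and -4.99 in the treated pool and -5.60 and -5.63 in the control pool. Of the 5 genes listed for B lymphocytes and lymphoid tissue (*Cxcr5*, *Ltb*, *Cxcl13*, *Ccl19*, *Ccr6*), 5 were above zero and 4 were called. These were all the calls of the panel, which had 0 with *B2m* alone, without treated replicate 1 or without treated replicate 2. Summed over the 5 listed genes, the level was -1.17 and -0.71 in the treated pool and -5.87 and -4.92 in the control pool. All 5 genes listed for monocytes and macrophages (*Ccr2*, *Ccr1*, *Ccl6*, *Ccl9*, *Spp1*) were below zero, with a median of -1.25 and 0 called, but 2 of them turned above zero with *Gapdh* alone, 1 without any reference and 1 without treated replicate 1. Their summed level was -1.66 and -0.81 in the treated pool and -1.11 and 1.42 in the control pool. The neutrophil receptor *Cxcr2* had a log2 fold change of 1.90, and the platelet chemokine *Pf4* of -0.20, which turned above zero with *Gapdh* alone, without *B2m* and without any reference. None of these markers was without a Ct. Their part in the values of *Ccr4*, *Ccl22*, *Ccr3* and *Ccl24* was not tested.

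A further 10 panel genes belong to type 2 pathways: the alarmin *Il33*, the costimulator *Tnfsf4*, the eosinophil growth factors *Il3* and *Csf2*, the shared receptor chain *Il2rg*, the additional CCR3 ligands *Ccl5* and *Ccl7*, and *Ccr8* with its ligands *Ccl1* and *Ccl8*. Of the 7 in the test, 0 passed it (0 at an unadjusted p-value under 0.05 as well), 5 were above zero and 2 below. *Tnfsf4*, 1 of the 5, was above Ct 35 on all 4 arrays. With *Gapdh* alone 7 were above zero, and with *B2m* alone 1 was. With late or missing values set to Ct 35, 4 of the 10 were above zero and 6 below. Genes set to 35 on all arrays then carry only the shift of the reference genes. The highest estimate was that of *Ccl5*, at -4.22 and -3.89 in the treated pool and -7.07 and -5.13 in the control pool. The log2 difference was 2.04 (SE 1.02, limma adjusted p = 0.366), whereas the estimates of *Ccl11* and *Ccl24* were below zero. The lowest was that of *Ccl7*, at -0.39 (SE 1.05, limma adjusted p = 0.847), with overlapping groups and a change of sign under 4 settings. *Csf2* (GM-CSF) had a Ct of 29.29 and 38.90 in the treated pool and 35.94 and 35.60 in the control pool, so that repeat arrays of 1 pool differed by 10.1 after normalization and no comparison of the pools could rest on it. The 3 genes outside the test each lacked a Ct. *Il3* gave 35.66 on treated replicate 2 and 38.81 on control replicate 2. *Ccl1* gave 39.14 and 38.95 on those same arrays. *Ccr8*, a receptor of Th2 and regulatory T cells, gave 35.44 and 34.94 in the treated pool and 36.22 on control replicate 2.

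Some panel genes lie next to one of the 10 in the genome, and their values are given without a test of likeness. The direct neighbors *Il4* and *Il13* are described above. *Cx3cl1*, between *Ccl22* and *Ccl17*, had a -ΔCt of -9.85 and -12.21 in the treated pool and -9.40 and -8.42 in the control pool, which differ by -2.12 on the log2 scale (SE 1.06, limma adjusted p = 0.366). On either side of *Ccl11*, *Ccl7* had the log2 fold change of -0.39 given above and *Ccl12*, a CCR2 ligand, had 1.40 (SE 1.02, limma adjusted p = 0.507), which was -0.04 with *B2m* alone. *Ccr2*, the gene after *Ccr3* and the receptor of inflammatory monocytes, had an estimate close to that of *Ccr3*. Its -ΔCt of -5.71 and -6.37 in the treated pool and -5.42 and -3.62 in the control pool differed by -1.52 on the log2 scale (SE 1.01, limma adjusted p = 0.507).

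Among the 3 genes under Ct 35 on all arrays, the closest profile over the 4 arrays was sought by the root-mean-square difference of centered -ΔCt. For *Ccr3* the nearest of the other genes tested was *Ccr2*, at 0.24 against a median of 1.18 for all genes. For *Ccl11* it was *Aimp1*, a broadly expressed component of the tRNA synthetase complex, at 0.12 against a median of 1.04. For *Ccl17* it was *Ccl8*, at 0.16 against 1.00. The nearest gene lies below the median by construction, so the medians give only the scale. Each likeness rests on 4 arrays, of which control replicate 2 was the highest for all 6 of these genes.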

How the data were processed

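RNA of ischemic thigh and calf muscle was reverse transcribed and measured by SYBR Green qPCR on a Qiagen RT2 Profiler inflammatory cytokine and receptor array with 96 wells. The labels name an RNeasy kit with DNase I, the study's methods TRIzol. The deposited Ct values, used as a score without normalization, mark wells that gave no Ct as null; baseline and threshold settings are not given in the sources used here. A second table holds the authors' own ratio of E-sel/AAV2/2 over LacZ/AAV2/2 and was used only for the gene symbol of each well. All 89 symbols matched RefSeq symbols (GRCm38.p6).

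As in the study's methods, -ΔCt against the mean of 5 reference genes was compared with limma 3.58.1 (R 4.3.3; lmFit and eBayes, two-sided, 4 arrays, no covariate). Benjamini-Hochberg adjustment covered the 77 of 84 target genes with a Ct on every array, and the threshold was 0.05. The test was checked on simulated data. Groups came from sample titles. All 10 type 2 genes, and related genes by list, were named. Members, lists and alternatives were chosen with earlier results of these data known. Alternatives concerned references, late Ct, single arrays, the replicate block and a variance trend. Full PCR efficiency was assumed, and levels of different genes also reflect their assays. Python 3.11.15 with matplotlib 3.10.9 drew the figures.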

Additional observations from a re-analysis of the deposited data

Results flagged for a closer look

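*Ccr8* could not enter the test because LacZ/AAV2/2 replicate 1 gave no Ct, yet the lower of its 2 E-sel/AAV2/2 values was 1.09 (log2) above the single LacZ/AAV2/2 value after normalization. These were late wells, with a Ct of 35.44 and 34.94 in E-sel/AAV2/2 and 36.22 in LacZ/AAV2/2. Of the 3 values, 2 were above Ct 35. With *B2m* as the only reference, the LacZ/AAV2/2 value lay between the 2 E-sel/AAV2/2 values. LacZ/AAV2/2 replicate 1 lacked a Ct for 6 target genes. The E-sel/AAV2/2 arrays lacked 2 each and LacZ/AAV2/2 replicate 2 lacked 1. Only genes higher in E-sel/AAV2/2 were looked for here. Outlying arrays were not sought, since each group had 2 arrays.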

How the results depend on the processing

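Under every alternative setting that kept all 4 arrays, 0 of the 10 genes were called. The lowest adjusted p-value of any of them was 0.0771 (limma, *B2m* as the only reference). Only 3 of the 10 were fitted in the setting limited to genes under Ct 35 on all arrays. The median log2 fold change of the 10 genes was 0.20. It moved to 1.31 with *Gapdh* alone, -1.24 with *B2m* alone, 0.75 with raw Ct, -0.55 with late or missing values set to Ct 35 and -1.61 over the 3 genes under Ct 35 on all arrays. It ran from -0.61 to 0.56 when single arrays were left out. With late values set to Ct 35, *Il13* and *Il5ra* have the same Ct on all arrays. Their value of -0.55, and with it the median, is therefore the shift of the reference genes. The count over all target genes was 4, and it was 7 with *Gapdh* alone and 0 with *B2m* alone, without E-sel/AAV2/2 replicate 1 or without E-sel/AAV2/2 replicate 2.

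Directions that turned were as follows, and the cause was not tested. With *B2m* alone the log2 fold change was -0.98 for *Il4*, -0.81 for *Il13*, -1.07 for *Il5ra*, -1.41 for *Ccl17*, -0.17 for *Ccl22*, -0.06 for *Ccr4* and -0.04 for *Ccl12*. *Ccl17* was -0.25 with *Gapdh* left out, and without single arrays it ran from -1.02 to 1.08. Without single arrays *Il13* ran from -0.21 to 1.46, *Il5ra* from -0.61 to 1.34 and *Ccl22* from -0.076 to 2.61. *Ccl7* was 0.72 with *Gapdh* alone and 0.16 with raw Ct, and it ran from -1.50 to 0.72 without single arrays.

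No source links arrays of the same replicate number, and 2 pairs cannot establish such a link. The differences between replicates 1 and 2 correlated at r = 0.33 between the groups over 77 genes, which are not independent. With the replicate block the 10 genes gave 0 calls, the median was 0.20 and the panel count was 5.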
